A study of Mus musculus with 6 samples.

Results

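A set of 10 genes that govern whether a cell leaves the G1 phase was followed in mammary gland stromal fibroblasts. They were chosen by symbol: the D-type cyclins Ccnd1, Ccnd2 and Ccnd3, the E-type cyclins Ccne1 and Ccne2, the CIP/KIP inhibitors Cdkn1a and Cdkn1b, and the INK4 inhibitors Cdkn2a, Cdkn2b and Cdkn2c. All 10 were among the 23337 genes of the count tables, and all 10 passed the low-count filter that left 13442 genes for testing. RNA was sequenced from 3 cultures of cpdm/cpdm mice, which lack SHARPIN, and 3 of wt/wt mice, all of the C57BL/KaLawRij strain and 7 weeks old. The cpdm allele is a spontaneous loss-of-function mutation of Sharpin that every cell of the animal carries. Each culture pooled the mammary glands of 3 mice, and cells were cultured with serum to confluence at passage 0. The 3 libraries of a group are therefore separate pools.

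D-type cyclins are made when growth factors act on a cell, and they switch on the kinases CDK4 and CDK6, which start to phosphorylate the retinoblastoma protein. E-type cyclins then switch on CDK2, which completes that step and lets E2F factors turn on the genes of DNA replication. INK4 proteins block CDK4 and CDK6, and CIP/KIP proteins block CDK2. In fibroblasts, contact between cells at confluence, DNA damage and long culture are known to raise different inhibitors of these families.

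Depth was even, with 13570649 to 15656196 counts assigned to genes per library. Values below are CPM, gene counts scaled by each library's total of gene counts, and fold changes are Sharpin-cpdm over wild type. Sharpin stood at 10.5, 9.13 and 9.50 CPM in Sharpin-cpdm cultures 1 to 3, against 24.5, 25.2 and 31.2 CPM in wild-type cultures 1 to 3, so the libraries followed their labels. The fibroblast markers Col1a1 and Pdgfra were found in every library, at no less than 20050 and 216 CPM. Same-numbered libraries of the genotypes deviated together across genes, and a fit with the replicate number as a block was set beside the one without it. The main fit was set as the one without the block. In edgeR's quasi-likelihood fit without it, 0 of 13442 genes had a Benjamini-Hochberg adjusted p under 0.05, although 307 (2.28%) had an unadjusted p under 0.05. DESeq2 without the block called 10 genes (0.0744%) and limma-voom 0. The blocked edgeR fit called 337 (2.51%), of which 53 were higher (0.394%) and 284 lower (2.11%), and 17.3% of all genes had an unadjusted p under 0.05 in it. DESeq2 with the block called 2.54%. Unless said otherwise, standard errors (± after a log2 fold change, n = 3 per group) and p-values below come from the blocked edgeR fit, with p adjusted over all tested genes.

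Cyclin D1 was the single member that passed a test, and it did so with the block. Ccnd1 lies on chromosome 7 at 144929931 to 144939925 on the minus strand (mm10, GENCODE M21). It stood at 86.1, 107 and 84.5 CPM in Sharpin-cpdm cultures 1 to 3, against 63.6, 80.8 and 61.8 CPM in wild-type cultures 1 to 3. The lowest Sharpin-cpdm library was above the highest wild-type library, which held for 1 of the 10 members and for 3.35% of all tested genes. Within same-numbered libraries the ratio was 1.35, 1.33 and 1.37, so that the step between genotypes was nearly the same in each pair although the pairs differed in level. On the log2 scale Ccnd1 rose by 0.42 ± 0.04 (edgeR, blocked, adjusted p 0.0109), and DESeq2 with the block called it too. The edgeR fit without the block gave 0.42 ± 0.17, an unadjusted p of 0.0417 and an adjusted p of 1.00. In the blocked fit with 1 pair left out, the log2 fold change was 0.42 each time, and the edgeR adjusted p was 0.00713 without pair 1, 0.0607 without pair 2 and 0.0664 without pair 3. The call was thus lost in 2 of these 3 smaller fits while the fold change kept its size. In bulk RNA, a change in the share of cells that express a gene and a change in RNA per cell cannot be told apart.

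**Figure D1:**
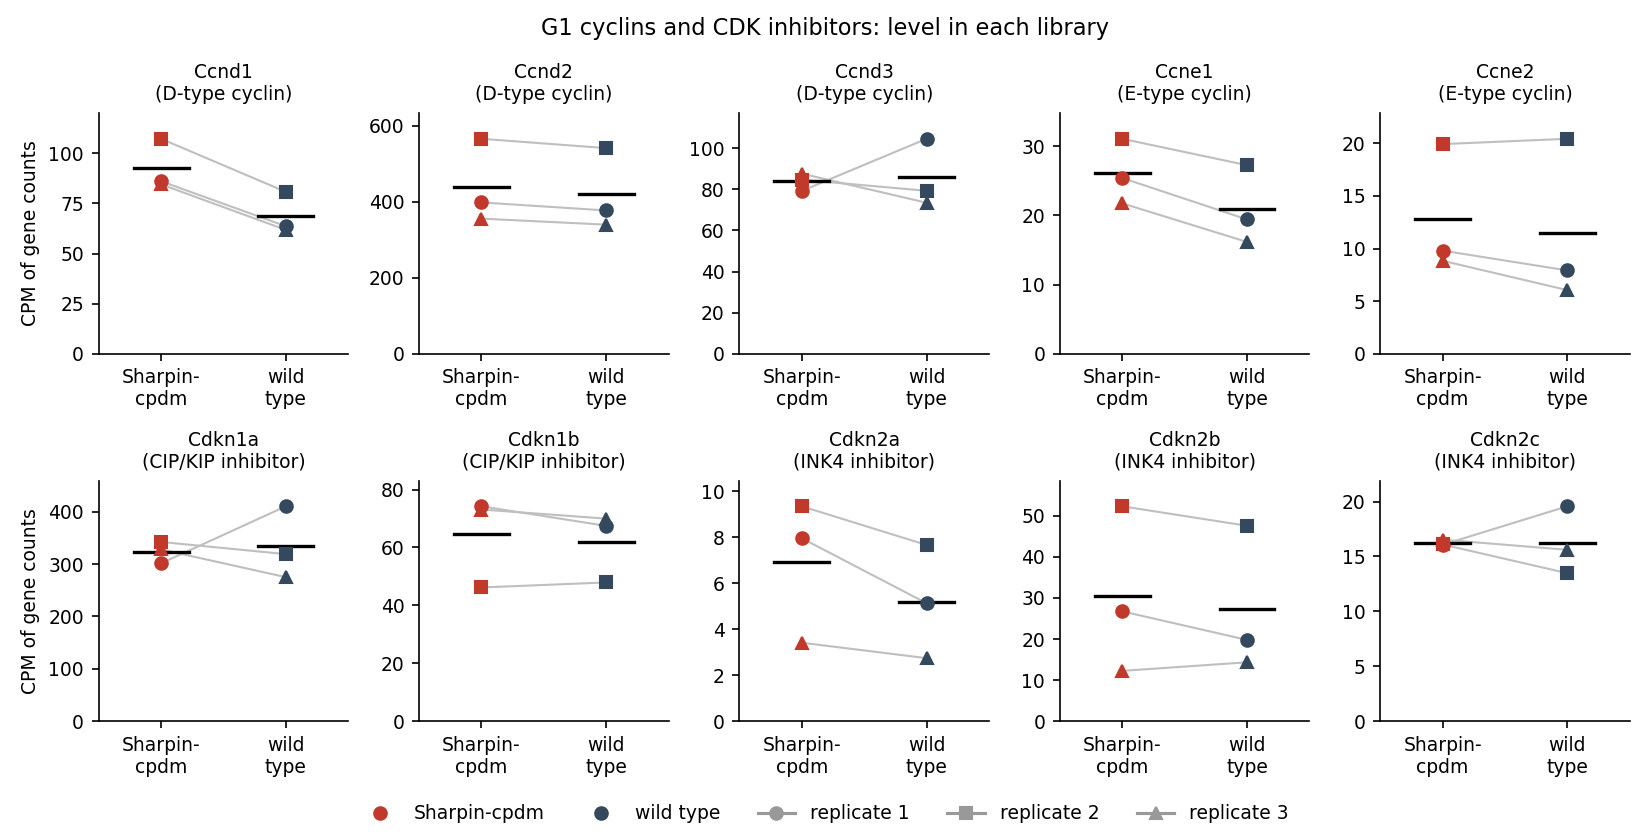
CPM of each gene in the 3 Sharpin-cpdm (left, red) and 3 wild-type (right, dark) libraries, with grey lines joining same-numbered libraries, black bars at the group means and axes from 0. Ccnd1 is the gene whose groups do not overlap, while Ccne2 and Cdkn2b are set apart by replicate 2 in both genotypes.

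Annotated exons of LTO1, a ribosome biogenesis gene that the count tables list as Oraov1, cover 23.4% of the exon bases of Ccnd1 on the other strand. The library kit does not mark strand, so reads there cannot be told apart. Oraov1 stood at 19.5, 16.7 and 19.9 CPM in Sharpin-cpdm cultures 1 to 3, against 20.1, 18.1 and 23.0 CPM in wild-type cultures 1 to 3. Its log2 fold change with the block was -0.14 ± 0.08 (edgeR adjusted p 0.461), and in every pair it was lower in Sharpin-cpdm, where Ccnd1 was higher.

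The other D-type cyclins did not pass. Ccnd2 (chromosome 6, 127125162 to 127152193, minus strand) stood at 398, 566 and 356 CPM in Sharpin-cpdm cultures 1 to 3, against 377, 541 and 340 CPM in wild-type cultures 1 to 3. It was higher in each pair by a ratio of 1.06, 1.05 and 1.05, a step far smaller than the gap of 1.59-fold between the lowest and highest wild-type library. The log2 fold change with the block was 0.06 ± 0.04 (edgeR adjusted p 0.528). Ccnd3 (chromosome 17, 47505051 to 47599691, plus strand) stood at 79.3, 84.7 and 87.7 CPM in Sharpin-cpdm cultures 1 to 3, against 105, 79.3 and 73.5 CPM in wild-type cultures 1 to 3. Here the pairs went different ways, with ratios of 0.757, 1.07 and 1.19, and the log2 fold change with the block was -0.03 ± 0.12 (edgeR adjusted p 0.925). Exons of the coding gene Bysl cover 4.11% of the exon bases of Ccnd3 on the other strand. The log2 fold change of Bysl with the block was 0.11 ± 0.05 (edgeR adjusted p 0.366).

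Measured per kilobase of annotated exon, Ccnd2 was the main D-type cyclin of these cultures. It made up 60.8%, 65.0% and 57.5% of the summed D-type level in Sharpin-cpdm cultures 1 to 3, against 61.2%, 68.7% and 62.7% in wild-type cultures 1 to 3. Ccnd1 made up 26.2%, 24.6% and 27.3% in Sharpin-cpdm cultures 1 to 3, against 20.6%, 20.5% and 22.8% in wild-type cultures 1 to 3. Its share did not overlap between the genotypes, whereas the shares of Ccnd2 and Ccnd3 did. The summed D-type level overlapped between the genotypes, at 69.6, 92.6 and 65.7 CPM per kilobase in Sharpin-cpdm cultures 1 to 3, against 65.5, 83.7 and 57.6 in wild-type cultures 1 to 3. These levels and shares depend on the length used, the union of annotated exons. It was 4709 bases for Ccnd1, 9409 for Ccnd2 and 8775 for Ccnd3. The Ccnd1 length includes the bases that LTO1 exons overlap.

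Among the E-type cyclins, Ccne1 followed cyclin D1 in direction but missed the threshold. Ccne1 (chromosome 7, 38097984 to 38107534, minus strand) stood at 25.4, 31.1 and 21.8 CPM in Sharpin-cpdm cultures 1 to 3, against 19.4, 27.3 and 16.2 CPM in wild-type cultures 1 to 3. It was higher in 3 of 3 pairs, by a ratio of 1.31, 1.14 and 1.35, while the groups overlapped. With the block, the log2 fold change was 0.32 ± 0.08 with an unadjusted p of 0.00496 and an adjusted one of 0.102 (edgeR). Ccne2 (chromosome 4, 11191351 to 11204779, plus strand) was far less even between cultures, at 9.80, 19.9 and 8.84 CPM in Sharpin-cpdm cultures 1 to 3, against 7.92, 20.4 and 6.04 CPM in wild-type cultures 1 to 3. Replicate 2 held 2.03 times the next highest Sharpin-cpdm library and 2.58 times the next highest wild-type library, and the pairs had ratios of 1.24, 0.975 and 1.46. The log2 fold change with the block was 0.22 ± 0.13 (edgeR adjusted p 0.446). Exons of Ints8, an Integrator subunit gene, cover 17.4% of the exon bases of Ccne2 on the other strand. Ints8 stood at 52.5, 55.2 and 56.0 CPM in Sharpin-cpdm cultures 1 to 3, against 49.3, 49.2 and 50.1 CPM in wild-type ones. Its log2 fold change with the block was 0.13 ± 0.05 (edgeR adjusted p 0.261), the same direction as Ccne2. Reads in the shared bases cannot be told apart by strand.

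**Figure D2:**
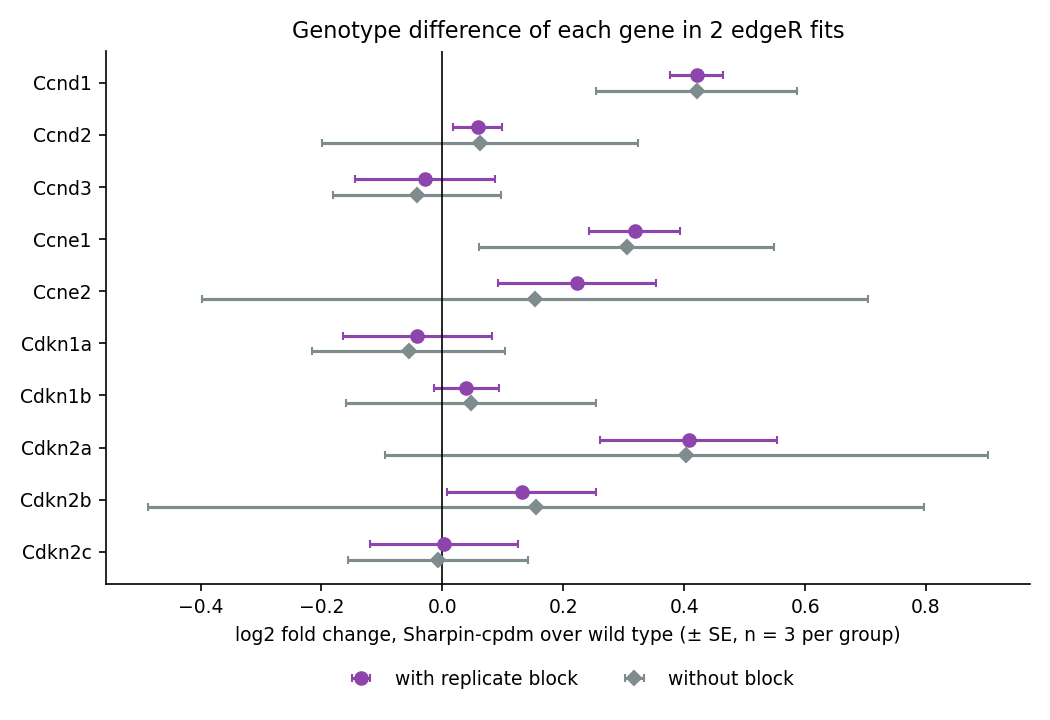
Log2 fold change of each gene (x axis, Sharpin-cpdm over wild type) with its standard error (bars, n = 3 per group) in edgeR's fit with the replicate block (purple circles, upper) and without it (grey diamonds, lower). The estimates nearly coincide while the errors shrink with the block, for Ccnd1 to 0.04 with the block, against 0.17 without it.

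Neither CIP/KIP inhibitor passed in either fit. Cdkn1a (chromosome 17, 29090976 to 29100727, plus strand) encodes p21 and is turned on by p53. It stood at 301, 342 and 328 CPM in Sharpin-cpdm cultures 1 to 3, against 410, 319 and 275 CPM in wild-type cultures 1 to 3. The wild-type libraries held both the highest and the lowest value, and the log2 fold change with the block was -0.04 ± 0.12 (edgeR adjusted p 0.897). Cdkn1b (chromosome 6, 134920401 to 134925513, plus strand) encodes p27. It stood at 74.2, 46.2 and 73.1 CPM in Sharpin-cpdm cultures 1 to 3, against 67.4, 47.9 and 69.9 CPM in wild-type cultures 1 to 3. It was lowest in replicate 2 of both genotypes, and its log2 fold change with the block was 0.04 ± 0.05 (edgeR adjusted p 0.749).

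The INK4 genes did not pass either, and Cdkn2a and Cdkn2b had the widest ranges of the set, 3.41-fold and 4.27-fold from the lowest to the highest of the 6 libraries. Cdkn2a (89274471 to 89294653) and Cdkn2b (89306299 to 89311039) are neighbours on the minus strand of chromosome 4, with 11645 bases between them. Cdkn2a uses 2 start sites to make p19ARF, which restrains MDM2, and p16INK4A. The counts are per gene, so these products could not be told apart. Cdkn2a and Cdkn2b were highest in replicate 2 and lowest in replicate 3 of both genotypes, as were Ccnd1, Ccnd2, Ccne1 and Ccne2. Promoters of 7 of the 10 members were in the RefSeq table (GRCm38.p6). That of Ccne1, which had this order too, is not shown. Whether any motif goes with the order was not tested. The 3 promoters of the Cdkn2a and Cdkn2b locus are shown. Each is the 250 bases before a start site, read 5′ to 3′ on the minus strand, with capitals where a searched motif matched.
Cdkn2a, upstream start (ARF), chr4:89294620-89294869: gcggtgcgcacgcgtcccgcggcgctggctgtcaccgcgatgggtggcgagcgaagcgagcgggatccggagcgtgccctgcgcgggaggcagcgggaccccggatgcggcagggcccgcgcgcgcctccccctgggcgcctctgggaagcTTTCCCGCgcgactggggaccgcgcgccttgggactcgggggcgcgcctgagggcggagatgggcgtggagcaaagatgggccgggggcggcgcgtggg
Cdkn2a, downstream start (INK4A), chr4:89282193-89282442: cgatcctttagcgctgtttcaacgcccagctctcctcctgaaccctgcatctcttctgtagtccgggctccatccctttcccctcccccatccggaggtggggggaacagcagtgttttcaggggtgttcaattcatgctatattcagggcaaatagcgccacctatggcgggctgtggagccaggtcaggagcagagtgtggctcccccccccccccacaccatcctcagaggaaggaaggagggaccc
Cdkn2b, chr4:89311033-89311282: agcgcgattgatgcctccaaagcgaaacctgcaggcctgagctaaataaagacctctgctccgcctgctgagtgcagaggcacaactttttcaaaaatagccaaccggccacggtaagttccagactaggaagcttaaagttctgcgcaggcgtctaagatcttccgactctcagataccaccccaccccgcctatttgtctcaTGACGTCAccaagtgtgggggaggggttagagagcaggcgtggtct

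The search covered both strands for the E2F letters TTTCCCGC, TTTCGCGC, TTTGCCGC and TTTGGCGC, the cyclic AMP response element letters TGACGTCA and TAACGTCA, the AP-1 letters TGACTCA, and the kappaB consensus by name. No motif overlapped another. An E2F match stood in the ARF promoter and a cyclic AMP element match in the Cdkn2b promoter, and the INK4A promoter held none of these letters. E2F letters stood in 1.86% of the 32851 promoters of the table, cyclic AMP element letters in 1.75%, AP-1 letters in 4.46% and kappaB matches in 3.9%. The other matched promoters of members (Ccnd3, Ccne1, Cdkn1a, Cdkn1b and Cdkn2c) held no match, which says only that these letters are not in those windows.

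Cdkn2a was the member with the fewest reads, at 39 to 129 counts per library. It stood at 7.96, 9.35 and 3.41 CPM in Sharpin-cpdm cultures 1 to 3, against 5.13, 7.66 and 2.74 CPM in wild-type cultures 1 to 3. It was higher in 3 of 3 pairs, by a ratio of 1.55, 1.22 and 1.25, but the groups overlapped widely. With the block, the log2 fold change was 0.41 ± 0.15 with an unadjusted p of 0.0298 and an adjusted one of 0.231 (edgeR). The size of this fold change was close to that of Ccnd1, but its standard error was 0.146, against 0.0440 for Ccnd1. Cdkn2b, which encodes p15, stood at 26.7, 52.3 and 12.2 CPM in Sharpin-cpdm cultures 1 to 3, against 19.8, 47.6 and 14.3 CPM in wild-type cultures 1 to 3. While replicates 2 and 3 lay far apart in both genotypes, the pairs had ratios of 1.35, 1.10 and 0.854 (log2 fold change 0.13 ± 0.12, edgeR adjusted p 0.642). Cdkn2c (chromosome 4, 109660876 to 109667189, minus strand), which encodes p18, was the steadiest of the INK4 genes, at 16.1, 16.1 and 16.5 CPM in Sharpin-cpdm cultures 1 to 3, against 19.6, 13.5 and 15.6 CPM in wild-type cultures 1 to 3. Its log2 fold change was 0.00 ± 0.12 with the block (edgeR adjusted p 0.995) and -0.01 ± 0.15 without it, so no direction can be given.

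For 9 of the 10 members, the ratio of the highest to the lowest wild-type library was larger than the ratio of the group means in either direction. Ccnd1 was the exception by a narrow margin, at 1.31 between wild-type libraries and 1.35 between group means. This was not counted over all tested genes, so it cannot be read as particular to the members. Ccnd1, Ccnd2, Ccne1, Ccne2, Cdkn2a and Cdkn2b were highest in replicate 2 and lowest in replicate 3 of both genotypes, and Cdkn1b was lowest in replicate 2 of both. These cyclins and INK4 genes were thus high in the same cultures, where Cdkn1b was low. How many of all tested genes had this order was not counted either, so the order cannot be read as particular to the members. The summed CPM of 15 genes of S phase and mitosis had the same order, at 1246, 1503 and 1072 in Sharpin-cpdm cultures 1 to 3, against 1062, 1379 and 796 in wild-type cultures 1 to 3. Other markers moved with the replicate number as well. Replicate 2 held the highest summed level of 7 macrophage markers (328 CPM in the Sharpin-cpdm culture, 386 CPM in its wild-type counterpart). Most of that sum was Lyz2 (263 and 295 CPM). Csf1r, Emr1 and Lyz2 were highest in replicate 2 of both genotypes. Ptprc, Cd68 and Itgam were highest in replicate 2 of wild type but in replicate 3 of Sharpin-cpdm, and Cd14 in replicate 3 of both. The fibroblast receptor gene Pdgfra was lowest in replicate 2 (216 CPM in the Sharpin-cpdm culture, 238 CPM in its counterpart). Col1a1, Col1a2, Dcn and Lum were also lowest there in both genotypes, whereas Vim and Thy1 were highest there. The part of these markers in the pattern was not tested, and the labels do not say what a replicate number marks.

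**Figure D3:**
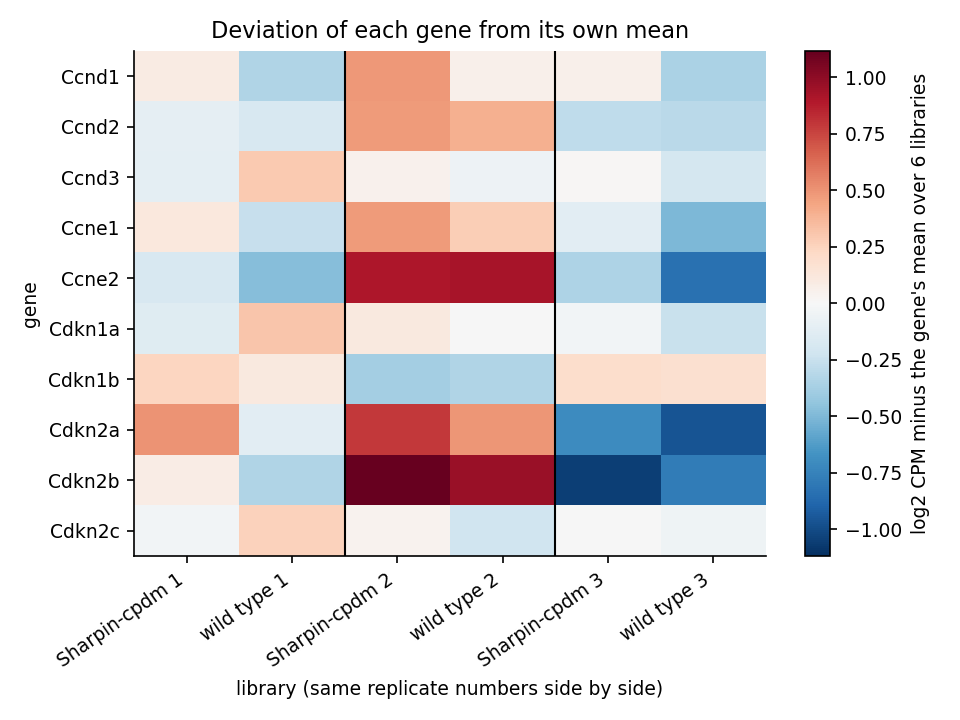
Deviation of each gene's log2 CPM from its own mean over the 6 libraries (colour), with genes in rows and same-numbered libraries side by side in columns, Sharpin-cpdm left of wild type. Replicate 2 is red for 6 genes in both genotypes and blue for Cdkn1b in both.

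Set in order by their mean level per kilobase over the 6 libraries, Cdkn1a was highest at 92.7 ± 12.9 CPM per kilobase (SD, n = 6), followed by Ccnd2 at 45.7 ± 10.4. Cdkn1a exceeded Ccnd2 in 6 of 6 libraries with no overlap of their ranges, and this was the single pair of neighbours in the order whose ranges stood apart. Cdkn2b (20.7 ± 12.4), Ccnd1 (17.1 ± 3.55) and Cdkn1b (13.9 ± 2.79) came next, and each of these neighbours changed places in some libraries, with the gene of higher mean on top in 4 of 6. Ccnd3 (9.67 ± 1.24) and Ccne1 (8.84 ± 2.05) were each on top in 3 of 6 libraries and cannot be ordered, nor can Cdkn2c (6.04 ± 0.731) and Cdkn2a (5.16 ± 2.29). Ccne2 was lowest at 3.48 ± 1.81 CPM per kilobase and stood under Cdkn2a in 6 of 6 libraries. Exon lengths came from GENCODE M21 and ran from 1172 bases for Cdkn2a to 9409 bases for Ccnd2, and transcripts shorter than this union of exons would have a higher level per length than given here. The ratio of the summed D-type level to the summed level of the 5 inhibitors was 0.523, 0.586 and 0.521 in Sharpin-cpdm cultures 1 to 3, against 0.419, 0.573 and 0.518 in wild-type cultures 1 to 3, and the groups overlapped.

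**Figure D4:**
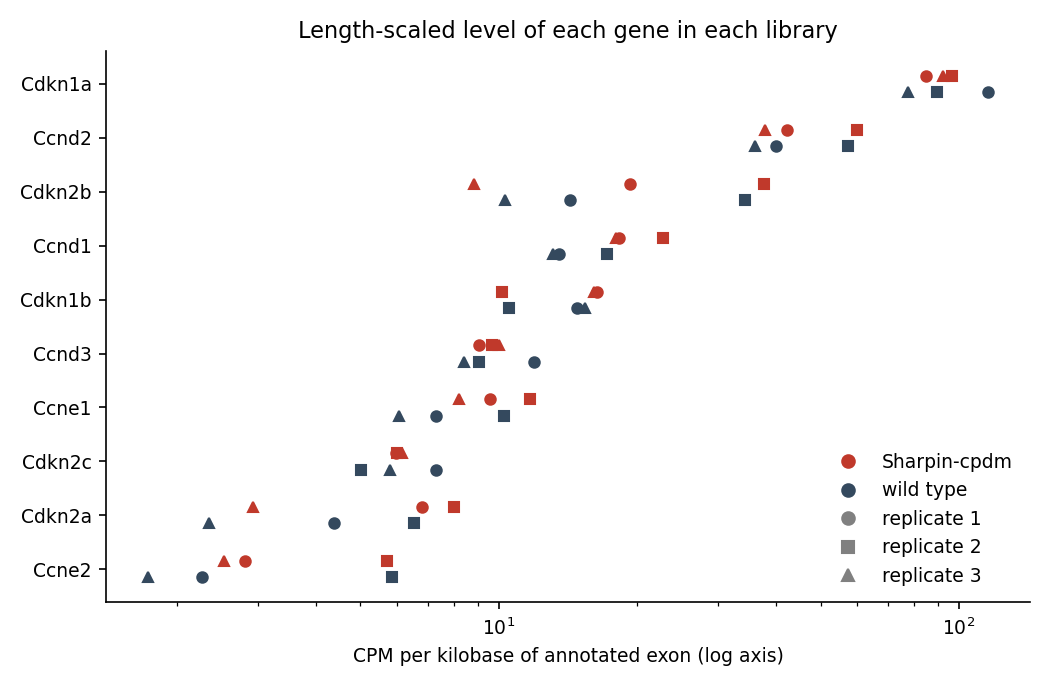
CPM per kilobase of annotated exon (log x axis) of each gene in each library, ordered by mean, with Sharpin-cpdm in red above wild type in dark and a marker shape for each replicate number. Cdkn1a stands clear of the rest, and the ranges of all other neighbours overlap.

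No other gene of the G1 pathway passed. Of 33 listed, edgeR called 0 with or without the block. Over all tested genes it called 2.51% with the block and 0 without it. In the blocked edgeR fit 6 of the 33 had an unadjusted p under 0.05, 5 higher and 1 lower, beside 17.3% of all tested genes. Without the block 0 of the 33 did, beside 2.28% of all tested genes. DESeq2 called 0 of the 33 in either fit. Their median log2 fold change with the block was 0.02, beside 0.09 for the 10 members and -0.00157 for all tested genes. Cdk4, the partner of the D-type cyclins, stood at 348, 275 and 331 CPM in Sharpin-cpdm cultures 1 to 3, against 304, 268 and 276 CPM in wild-type cultures 1 to 3, with a log2 fold change of 0.15 ± 0.05 (edgeR adjusted p 0.187). Cdk6, the other partner, reached no more than 2.75 CPM in any library. Cdk2, the partner of the E-type cyclins, had a log2 fold change of 0.08 ± 0.06, and Rb1, which encodes the retinoblastoma protein, one of -0.08 ± 0.09. E2f1, the activator that this protein holds back, had 0.01 ± 0.06. The remaining inhibitor genes were Cdkn1c, which encodes p57, at -0.13 ± 0.22, and Cdkn2d, an INK4 gene, at 0.08 ± 0.10.

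Of the 10 members, 8 had a log2 fold change above 0 with the block, as did 49.5% of all tested genes. The 8 include Cdkn2c at 0.00 ± 0.12, which has no direction. Ccnd1, Ccnd2, Ccne1 and Cdkn2a were higher in all 3 pairs and 0 were lower in all 3, where 22.7% of all tested genes were higher in all 3 pairs and 18.5% lower. Of the 15 genes of S phase and mitosis, all had a log2 fold change above 0 with a median of 0.21, and 1 passed: Rrm1, a ribonucleotide reductase subunit named after its values were seen, at 0.33. Of 14 p53 target genes, 11 were above 0 with a median of 0.15, and 1 passed, the cyclin G1 gene Ccng1 at 0.28, also named after its values were seen. Cdkn1a, itself a p53 target, stood at -0.04 beside them. Of all tested genes, 2.51% passed with the block.

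**Figure D5:**
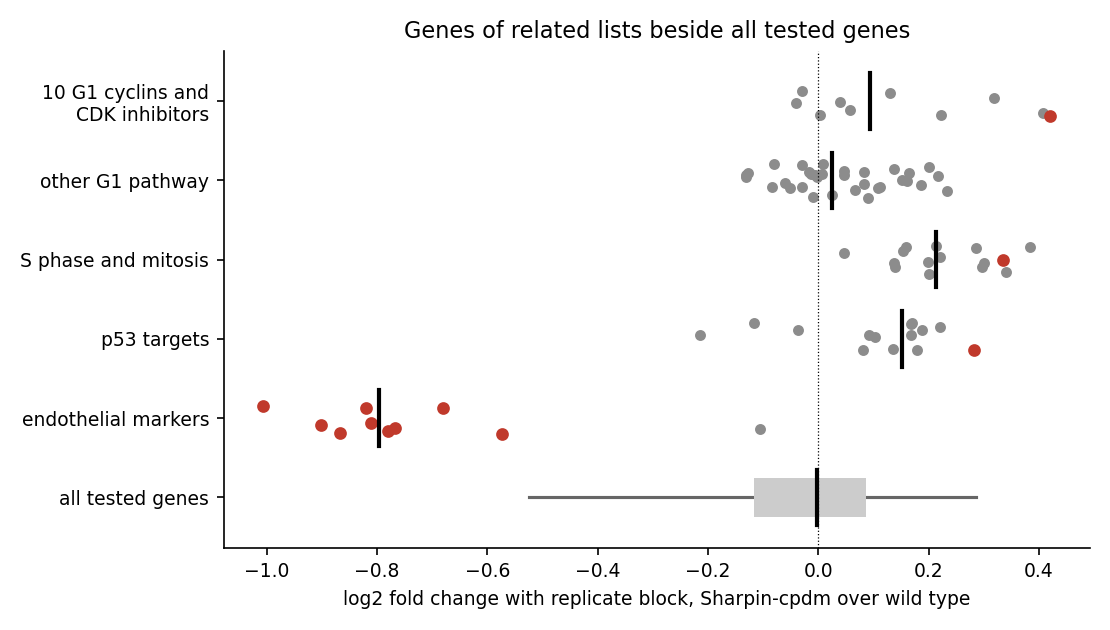
Log2 fold change with the replicate block (x axis) of each gene in 5 lists, with genes past the threshold in red, list medians as black bars, and for all 13442 tested genes the 25th to 75th percentile (box) and the 5th to 95th (line). The median of the G1 pathway genes is 0.02, and that of the 10 members is 0.09, just past the 75th percentile of all tested genes (0.0858). All 15 S phase and mitosis genes lie above 0, and all endothelial markers lie below 0.

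Markers of other cells that a digested gland can leave in culture were measured too. Of 10 endothelial markers, 9 fell with the block and 0 rose. Their median log2 fold change was -0.80, and they summed to 472 to 704 CPM in Sharpin-cpdm, against 619 to 1101 CPM in wild type. Pecam1, the endothelial adhesion molecule, was present in every library, at 79.1 CPM or more. Of 7 macrophage markers 0 passed, with sums of 130 to 328 CPM in Sharpin-cpdm, against 68.9 to 386 CPM in wild type. Of 6 tested epithelial markers 0 passed, with sums over all 7 of 131 to 330 CPM in Sharpin-cpdm, against 233 to 448 CPM in wild type. Of 6 pericyte markers 2 fell, Abcc9 at -0.59 ± 0.08 and Notch3 at -0.45 ± 0.07. The defining marker Rgs5, at -0.40 ± 0.09, did not pass (edgeR adjusted p 0.0848). The 6 summed to 1196 to 1458 CPM in Sharpin-cpdm, against 1271 to 1471 CPM in wild type. Most of that sum was Pdgfrb, at 830 to 1238 CPM over the libraries. Of 7 fibroblast markers 2 fell, the matrix proteoglycan genes Dcn and Lum. Dcn stood at 458, 325 and 778 CPM in Sharpin-cpdm cultures 1 to 3, against 659, 559 and 1982 CPM in wild-type cultures 1 to 3, with a log2 fold change of -0.90 ± 0.15 (edgeR adjusted p 0.0403). Lum stood at 65.5, 38.5 and 98.1 CPM in Sharpin-cpdm cultures 1 to 3, against 95.5, 63.7 and 172 CPM in wild-type cultures 1 to 3, with a log2 fold change of -0.71 ± 0.07 (edgeR adjusted p 0.00839). Both were lower in 3 of 3 pairs, and their groups overlapped. The fibroblast markers summed to 44167 to 49718 CPM in Sharpin-cpdm, against 44488 to 51520 CPM in wild type, and most of that sum was Col1a1 and Col1a2. Of 5 adipocyte markers, which summed to 22.9 to 43.9 CPM in Sharpin-cpdm, against 39.8 to 83.2 CPM in wild type, Fabp4 alone was tested, and it fell. Fabp4 is also made by capillary endothelium. The adipocyte gene Adipoq was at 0 in 3 libraries and at no more than 0.201 CPM in the others, while the defining markers Ptprc, Epcam, Rgs5 and Sox10 were above 0 in every library. Most endothelial markers, Abcc9, Notch3, Dcn, Lum and Fabp4 were thus lower beside the higher Ccnd1, and their part in its rise was not tested. In the pericyte and fibroblast lists, Cspg4 (0.09 ± 0.06), Col1a2 (0.02 ± 0.05) and Vim (0.13 ± 0.04) were above 0 and did not pass. The remaining markers of these lists were below 0 and did not pass. Of all tested genes, 2.11% were called lower with the block. Abcc9, Notch3, Dcn, Lum, Cspg4, Col1a2 and Vim were named after their values were seen.

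By pattern over the 6 libraries, genes like Ccnd1 were sought among 9112 others with a mean of at least 10 CPM. Symbols made of Gm and digits or ending in Rik were left out of these. The most alike were Fam19a5, a secreted chemokine-like protein gene, Uchl3, a ubiquitin hydrolase gene, Ank, a pyrophosphate transport gene, and Lgr4, an R-spondin receptor gene. The root mean square difference of their centred log2 CPM from that of Ccnd1 was 0.05, 0.07, 0.08 and 0.08. Fam19a5 stood at 13.7, 17.6 and 12.9 CPM in Sharpin-cpdm cultures 1 to 3, against 9.60, 12.9 and 9.07 CPM in wild-type cultures 1 to 3. Among the members themselves, Ccne1 came nearest to Ccnd1, with a difference of 0.13, and the closest pair was Ccnd3 and Cdkn1a, with 0.05.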

How the data were processed

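The authors deposited raw read counts, 1 table per library with a whole number for each gene symbol. TopHat2 2.0.10, HTSeq 0.5.4p3, bcl2fastq 1.8.4 and the mm10 build are named, with no order, per the submitters' processing notes. Which annotation was counted, and with which strand and overlap options, is not given in the sources used here. Left out of totals and tests were 5 summary rows, 48.8% to 51.2% of the entries and mostly alignments that were not unique, so near-identical copies of a gene are undercounted. In edgeR 4.0.16 (R 4.3.3), genes were filtered with filterByExpr and scaled by TMM, and genotype was tested with the quasi-likelihood F-test, two-sided, with Benjamini-Hochberg adjustment over 13442 genes (threshold 0.05). A standard error is the size of a log2 fold change over the root of its F. DESeq2 1.42.0 and limma 3.58.1 (voom) were alternatives. CPM uses gene totals without TMM factors, and log2 CPM has a prior count of 2.

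Replicate numbers come from the labels. Deviations from group means correlated at 0.457, 0.809 and 0.737 across genes (not independent replicates) for numbers 1, 2 and 3, all over the limit of 0.1. On this ground, taken from these same data, same-numbered libraries were treated as pairs. Other combinations correlated at no more than 0.00677. Deviations within a group of 3 add up to 0, which pushes those values down, so they are no separate ground for pairing. Libraries of a group differed beyond sampling noise (chi-square per degree of freedom of at least 16.9). Members and lists were chosen with earlier results of these data known. The text names all members, Sharpin, called genes and 7 fixed genes of the pathway list, defining markers, and the 4 genes most like Ccnd1. Other macrophage, pericyte and fibroblast markers were named after their values were seen. A further list of cell type markers is not reported here.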

Additional observations from a re-analysis of the deposited data

How the results depend on the processing

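Without the block, the count of called genes was 0 in edgeR with TMM, with DESeq2 size factors, with library totals, without the low-count filter and without any one library, and in limma-voom, and it was 10 in DESeq2. With the replicate block it was 337 in edgeR and 341 in DESeq2, and in edgeR without one pair it was 653 (pair 1 left out), 128 (pair 2) and 44 (pair 3). Members called were 0 without the block in every one of these fits. With the replicate block Ccnd1 was called in edgeR and in DESeq2 (1 of 10 members), and without one pair the number called was 0 to 1, the call being kept without pair 1. The 33 other pathway genes had 0 calls in every fit. The fold change of Ccnd1 lay between 0.27 and 0.57 without single libraries and between 0.42 and 0.43 in all other fits. No scaling moved the median of all genes beyond 0.00917 on the log2 scale.

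Directions of small fold changes turned. Cdkn2c, at -0.00689, was 0.00301 with the replicate block, 0.00818 in DESeq2 with the replicate block, 0.0118 in limma-voom and 0.00194 with library totals. Without single libraries the fold changes ranged from -0.19 to 0.31 for Ccnd2, -0.14 to 0.11 for Ccnd3, -0.35 to 0.90 for Ccne2, -0.18 to 0.10 for Cdkn1a, -0.10 to 0.22 for Cdkn1b, -0.53 to 0.86 for Cdkn2b and -0.11 to 0.14 for Cdkn2c. Without one pair, in the blocked fit, they ranged from -0.15 to 0.16 for Ccnd3, -0.17 to 0.16 for Cdkn1a, -0.00679 to 0.08 for Cdkn1b and -0.13 to 0.15 for Cdkn2c. Other fold changes kept their direction but not their size. Without single libraries they ranged from 0.13 to 0.56 for Ccne1 and 0.09 to 0.82 for Cdkn2a, and without one pair in the blocked fit from 0.00997 to 0.27 for Cdkn2b, 0.11 to 0.40 for Ccne2, 0.29 to 0.48 for Cdkn2a, 0.28 to 0.38 for Ccne1 and 0.05 to 0.07 for Ccnd2. The cause was not tested. Depth was lowest for Cdkn2a, at 39 to 129 counts per library.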
